A study of Homo sapiens with 2 samples.

Results

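The genes described here encode 10 proteins that fold, modify, trim and crosslink collagen: PCOLCE and BMP1 (removal of the C-propeptide), SERPINH1 (chaperone), P4HA1 and P4HA2 (prolyl 4-hydroxylase), PLOD1 and PLOD2 (lysyl hydroxylase), and LOX, LOXL1 and LOXL2 (lysyl oxidase). They were chosen by name from the deposited transcript table, with no measured value in the rule. A gene's value is the sum of the FPKM of its transcripts that are annotated, assembled close to an annotated one, or contained in one. FPKM divide the fragments of a transcript by its length and by the library's mapped total, so levels of different genes can be set side by side per length. Of 148 rows that carry a member's name, 133 entered these sums. The table names 49900 genes, 17965 of them reached 1 FPKM in at least 1 library, and all 10 members are among these.

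The study set WI-38 cells, an established strain of human lung diploid fibroblasts, at a population doubling level of 20 (young) against the same strain at a level of 52, where repeated division has ended in replicative senescence. Both cultures were grown in DMEM with no other agent named, and total RNA was sequenced after amplification. Each group holds 1 library, so no spread between cultures is known, no test was made, and every difference is one between 2 libraries. Values are given as young, then senescent; the column headed Old in the deposited table was taken as the senescent library.

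Fibrillar collagen is made as procollagen in the endoplasmic reticulum, where prolyl 4-hydroxylases stabilise the triple helix, lysyl hydroxylases modify lysines and the chaperone HSP47 (the product of SERPINH1) binds the folded helix. After export, N- and C-proteinases remove the propeptides so that fibrils can form, and copper-dependent lysyl oxidases start the covalent crosslinks. Lysyl hydroxylation of the chain ends, the telopeptides, sets which kind of crosslink forms. Lung fibroblasts are a main source of these proteins in the lung interstitium.

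The effective depth, estimated from the steps between low FPKM values, was 15920000 fragments (young) and 14810000 fragments (senescent). A single fragment on a transcript of 1000 bases is worth 0.0785 and 0.0844 FPKM. All 7 listed fibroblast markers (VIM, THY1, PDGFRA, PDGFRB, S100A4, FAP and LUM) were measured, with sums of 4049 and 3600 FPKM that are mostly VIM, at 3477 and 3131 FPKM. Of the others FAP stood at 131 and 25.5 FPKM, LUM at 63.4 and 35.8 FPKM, and THY1 at 149 and 203 FPKM. Of 6 epithelial markers 3 reached 1 FPKM, with summed levels over the list of 16.8 and 9.90 FPKM and KRT5 at 0 in both libraries. These 3 did not share a direction: KRT19 stood at 11.5 and 1.37 FPKM, KRT8 at 1.95 and 1.49 FPKM, and KRT18 at 2.84 and 6.75 FPKM. The endothelial genes CDH5, VWF and KDR were all under 1 FPKM, and of 4 blood markers only CD68 reached it, at 14.3 and 21.1 FPKM. Their part in the results was not tested. The 4 genes listed for dividing cells (MKI67, TOP2A, CCNB1 and LMNB1) summed to 137 and 12.1 FPKM. Of this sum LMNB1, a lamin gene rather than one of cell division, made up 37.5 and 0.901 FPKM. CDKN1A, a cell cycle inhibitor, stood at 306 and 862 FPKM.

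Senescent fibroblasts had far less transcript of PCOLCE, less of SERPINH1 and LOXL1, and more of PLOD2, while the other 6 genes stayed within 2-fold. The rule of size counts a gene as lower or higher at 2-fold after 1 FPKM is added to both values, and log2 ratios are given on that scale, which understates differences of low genes. By it 3 members were lower, where 8.58% of the 17965 measured genes and 8.62% of the 12307 protein-coding ones were. PLOD2 was the 1 member that was higher, where 6.65% of all measured and 6.48% of protein-coding genes were, so that count of 1 in 10 is close to the background. The members' median log2 ratio was -0.15, beside -0.10 over all measured genes. In bulk RNA, fewer cells that make a transcript and less of it per cell cannot be told apart.

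**Figure D1:**
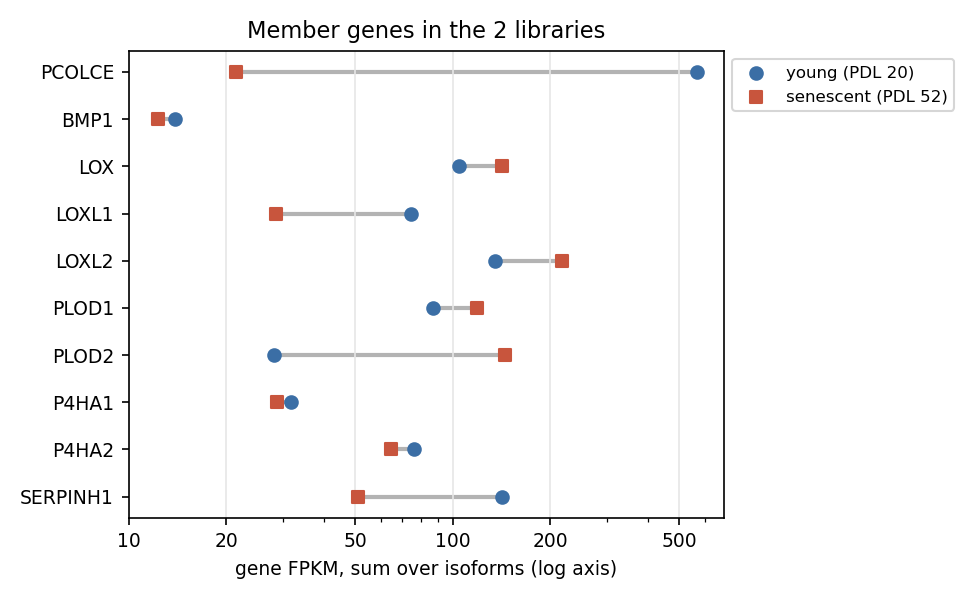
Gene FPKM (log axis, sum over isoforms) of each member gene in the young library (circles) and the senescent library (squares), 1 library each. PCOLCE spans the widest range, from 568 to 21.4 FPKM, and PLOD2 moves the other way, from 28.0 to 145 FPKM.

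PCOLCE, the procollagen C-proteinase enhancer, is a secreted glycoprotein with no proteinase activity of its own that binds the procollagen C-propeptide region and speeds its cleavage. The gene (ENSG00000106333) lies on the plus strand at chr7:100199800-100205798 (hg19). Its level was 568 FPKM in young and 21.4 FPKM in senescent cells. The young sum was the highest of the 10 members, whereas in senescent cells only BMP1 was lower. The difference is 26.5-fold, a log2 ratio of -4.66, which ranked 2 from the lowest among the 17965 measured genes.

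All 8 isoforms of PCOLCE that reached 1 FPKM were at least 2-fold lower, with log2 ratios from -4.74 to -1.27. The largest was PCOLCE-010, a processed transcript of 765 bases, at 247 and 8.31 FPKM. The retained-intron transcripts PCOLCE-009 (124 and 5.18 FPKM), PCOLCE-003 (100.4 and 3.32 FPKM) and PCOLCE-004 (16.2 and 0.736 FPKM) followed the same direction. The full coding transcript PCOLCE-001, of 1702 bases, stood at 62.2 and 2.49 FPKM, about 1488 and 55.4 fragments at the estimated depths. A coding transcript of 1231 bases assembled close to it stood at 13.8 and 1.22 FPKM.

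Protein-coding transcripts made up 13.4% (young) and 17.3% (senescent) of the summed PCOLCE FPKM, and most of the sum came from short noncoding models. On the coding transcripts alone the levels were 76.0 and 3.72 FPKM, a log2 ratio of -4.03, and PCOLCE was then not the highest member in young cells. Of 9 tested PCOLCE isoforms, 6 are called lower in the authors' deposited table (q under 0.1), with q = 1.09e-10 for PCOLCE-010 and q = 2.02e-08 for PCOLCE-001. These q-values compare 2 libraries, not replicated conditions. The opposite-strand RNA RP13-530H6.2 overlaps the start of the locus and was low, at 1.17 and 0.108 FPKM.

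The PCOLCE promoter is shown because the gene had the largest difference of the set. It runs from 250 bases before to 50 after the annotated start (RefSeq, GRCh38.p14, chr7:100602113-100602412, plus strand), 5′ to 3′, with capitals on each hypoxia response core (ACGTG or GCGTG on either strand). This motif is found in 48.4% of the 35116 RefSeq promoters of the same length, and each match is a description of the letters only.
PCOLCE: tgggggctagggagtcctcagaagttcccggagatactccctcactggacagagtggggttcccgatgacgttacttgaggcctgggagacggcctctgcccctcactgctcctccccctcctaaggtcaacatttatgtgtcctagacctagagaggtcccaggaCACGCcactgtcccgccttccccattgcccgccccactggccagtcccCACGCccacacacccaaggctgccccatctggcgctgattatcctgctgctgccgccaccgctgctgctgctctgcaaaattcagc
The 2 matches lie 84 and 36 bases before the start. Promoter entries of 8 members were searched. BMP1 and LOXL2 were left out of this search, so nothing is said of their promoters.

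BMP1 is the metalloproteinase that removes the C-propeptide of fibrillar procollagens and also cleaves the propeptide of lysyl oxidase. The gene (ENSG00000168487) lies on the plus strand at chr8:22022249-22069839 (hg19). It was the lowest member in both libraries, at 13.9 and 12.3 FPKM, a log2 ratio of -0.16. None of its 5 measured isoforms passed 2-fold and none is called in the authors' deposited table. A coding transcript of 3561 bases assembled close to BMP1-201 stood at 4.81 and 3.10 FPKM and was the largest in young cells, and BMP1-013, a processed transcript at 2.85 and 3.63 FPKM, was the largest in senescent cells. The ratio of enhancer to proteinase transcript, PCOLCE over BMP1, was 40.8 in young and 1.74 in senescent cells. On coding transcripts alone it was 15.5 and 1.13.

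SERPINH1 encodes HSP47, the collagen-specific chaperone of the endoplasmic reticulum and a heat shock protein. The gene (ENSG00000149257) lies on the plus strand at chr11:75273101-75283828 (hg19). It stood at 142 FPKM in young and 51.2 FPKM in senescent cells, 2.78-fold lower, with a log2 ratio of -1.46. Coding transcripts carried 97.1% and 97.9% of the sum, so short noncoding models had little weight here.

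Of 8 measured SERPINH1 isoforms 4 were at least 2-fold lower and none was higher. SERPINH1-201, a coding transcript of 1324 bases, was the largest at 71.6 and 21.1 FPKM, about 1282 and 352 fragments. SERPINH1-013 stood at 39.9 and 16.0 FPKM, and SERPINH1-018 at 10.1 and 1.27 FPKM. SERPINH1-011 differed less, at 9.61 and 7.33 FPKM, and it made up 6.75% of the gene's sum in young and 14.3% in senescent cells. The authors' deposited table calls SERPINH1-201 (q = 0.0658) and SERPINH1-018 (q = 0.0293) lower.

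An antisense gene, RP11-939C17.2, covers 885 bases at the 3′ end of the SERPINH1 locus on the opposite strand. It stood at 156 and 42.9 FPKM, a log2 ratio of -1.84, so its level was 109% (young) and 83.8% (senescent) of that of SERPINH1. The strand of the reads is not given in the sources used here, and reads of the 2 genes over these bases cannot be told apart. Of its 3 tested isoforms, the authors' deposited table calls RP11-939C17.2.1-003 (90.5 and 22.1 FPKM, q = 0.0445) but not RP11-939C17.2.1-001 (52.6 and 17.6 FPKM, q = 0.149) or RP11-939C17.2.1-002 (12.7 and 3.18 FPKM, q = 0.166).

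The first of 2 SERPINH1 promoter entries (RefSeq, GRCh38.p14, chr11:75562003-75562302, plus strand) is shown for its heat shock element. Among the 11 member entries searched, it alone holds one. The letters searched were TTC, GAA and TTC, each separated by 2 bases of any kind, on either strand, found in 0.49% of all promoters of this length; capitals mark that element and 1 hypoxia response core.
SERPINH1: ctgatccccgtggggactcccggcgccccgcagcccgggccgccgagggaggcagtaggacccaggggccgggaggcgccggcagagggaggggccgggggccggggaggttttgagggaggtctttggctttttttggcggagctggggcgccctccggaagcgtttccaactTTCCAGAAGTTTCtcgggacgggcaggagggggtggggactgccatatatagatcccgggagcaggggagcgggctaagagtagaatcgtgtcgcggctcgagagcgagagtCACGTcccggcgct
The heat shock element starts 76 bases before the annotated start of transcription. The AP-1 site TGANTCA, found in 7.71% of all promoters, matched none of the 11 member entries, and the TATA box letters TATAAA, found in 11.5%, matched P4HA1 alone.

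P4HA1 and P4HA2 encode alternative catalytic alpha subunits of prolyl 4-hydroxylase, which work in a complex with the beta subunit P4HB. P4HA1 (ENSG00000122884, minus strand, chr10:74766975-74856732, hg19) stood at 31.8 and 28.8 FPKM, a log2 ratio of -0.14. P4HA2 (ENSG00000072682, minus strand, chr5:131527531-131631008, hg19) stood at 75.9 and 64.7 FPKM, a log2 ratio of -0.23. Neither gene passed 2-fold, and no isoform of either is called in the authors' deposited table. P4HA2 over P4HA1 was 2.39 and 2.25 on these sums but 0.865 and 0.716 on coding transcripts alone, which turns the order of the subunits. P4HB stood at 216 and 214 FPKM. The summed alpha subunits, P4HA3 included, came to 109.8 and 95.0 FPKM.

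Within P4HA1 the isoforms did not all follow the gene: of 7 measured, 2 were at least 2-fold lower and 1 was higher. P4HA1-002 was the largest at 12.7 and 10.1 FPKM, whereas P4HA1-001 stood at 0.00649 and 5.97 FPKM, about 0.261 and 223 fragments. The authors' deposited table gives P4HA1-001 q = 0.282, so it is not called. Of the short noncoding isoforms, P4HA1-003 stood at 5.79 and 5.76 FPKM and P4HA1-004 at 5.19 and 1.19 FPKM.

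P4HA1-002 and P4HA1-001 differ by a pair of mutually exclusive exons, exon 9 of 15 in either transcript (GENCODE v29). Each is 71 bases long, and they are identical at 43 of 71 positions (60.6%). They are shown because P4HA1-001 was listed near 0 in young cells only; capitals mark the exon and lower case the 15 flanking bases of the transcript on each side.
P4HA1-002 exon: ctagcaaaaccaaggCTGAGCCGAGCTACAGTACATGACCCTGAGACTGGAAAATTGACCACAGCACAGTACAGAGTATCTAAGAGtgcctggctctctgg
P4HA1-001 exon: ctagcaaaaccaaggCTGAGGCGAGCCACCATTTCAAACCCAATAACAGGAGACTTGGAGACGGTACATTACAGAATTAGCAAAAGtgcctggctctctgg
The 3 annotated coding isoforms with the first exon summed to 14.0 and 10.1 FPKM, and the 2 with the other exon to 2.76 and 8.07 FPKM. In the latter pair P4HA1-001 alone was higher, while P4HA1-202 stood at 2.76 and 2.11 FPKM. P4HA1-203, at 3.47 and 2.61 FPKM as assembled and 0.497 and 0.970 FPKM as annotated, was not sorted by exon. These sums depend on how fragments shared by near-identical isoforms were divided between them by the authors' software.

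In summed FPKM, P4HA2 was carried mostly by short transcripts not annotated as coding, and 1 of its 10 measured isoforms passed 2-fold, in the lower direction. The retained-intron transcripts P4HA2-007 (27.5 and 22.6 FPKM) and P4HA2-008 (16.6 and 11.9 FPKM) and the nonsense-mediated decay transcript P4HA2-019 (13.4 and 14.0 FPKM) were the largest. The coding P4HA2-004, of 2223 bases, stood at 8.25 and 6.46 FPKM. That is about 266 and 194 fragments, beside 238 and 182 for P4HA2-007, of 743 bases. Coding transcripts made up 23.7% and 24.1% of the P4HA2 sum. PDLIM4, on the opposite strand within the P4HA2 locus, stood at 45.6 and 47.0 FPKM.

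PLOD1 and PLOD2 encode lysyl hydroxylases: PLOD1 acts mainly on lysines of the triple helix and PLOD2 on those of the telopeptides. PLOD2 (ENSG00000152952) lies on the minus strand at chr3:145787227-145881440 (hg19). It stood at 28.0 FPKM in young and 145 FPKM in senescent cells, 5.19-fold higher, with a log2 ratio of 2.34. This ratio ranked 101 from the highest among the measured genes. On coding transcripts alone the levels were 17.6 and 78.9 FPKM, a log2 ratio of 2.10.

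All 8 measured PLOD2 isoforms were higher in the senescent library, 7 of them by at least 2-fold. The coding PLOD2-001, of 3732 bases, stood at 4.39 and 23.7 FPKM, about 247 and 1238 fragments, and the coding PLOD2-003 at 7.13 and 24.7 FPKM. Assembled coding transcripts close to PLOD2-001 stood at 1.46 and 20.5 FPKM (1915 bases) and at 4.27 and 10.1 FPKM (2140 bases). The retained-intron transcript PLOD2-010 was the largest in both libraries, at 8.06 and 51.2 FPKM, and PLOD2-009 stood at 1.87 and 11.0 FPKM. The authors' deposited table calls 3 of the 8 tested isoforms higher: the one of 1915 bases (q = 0.000107), PLOD2-001 (q = 0.00754) and PLOD2-003 (q = 0.0917). It gives PLOD2-010 the status LOWDATA rather than OK, so this isoform was not tested.

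PLOD2 is spliced in 2 forms that differ by an exon of 63 bases, a whole number of codons. The long form that carries it, known as LH2b, is the one linked to telopeptide hydroxylation. The exon is number 14 of 20 in PLOD2-001 (GENCODE v29) and is shown in capitals between 15 flanking transcript bases on each side, because the annotated coding signal lay in isoforms that hold it.
PLOD2-001 exon: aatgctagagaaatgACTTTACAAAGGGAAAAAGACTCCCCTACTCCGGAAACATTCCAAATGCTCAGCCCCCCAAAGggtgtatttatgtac
The 3 annotated coding isoforms with this exon summed to 11.9 and 48.3 FPKM. PLOD2-002, the annotated coding isoform without it, stood at 0.000592 and 0.00147 FPKM, under the worth of 1 fragment in either library. The assembled coding transcripts were not sorted by this exon.

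The PLOD2 promoter (RefSeq, GRCh38.p14, chr3:146161135-146161434, minus strand) is shown as that of the 1 member that was higher. Capitals mark its 3 hypoxia response cores, which lie 213, 200 and 146 bases before the start.
PLOD2: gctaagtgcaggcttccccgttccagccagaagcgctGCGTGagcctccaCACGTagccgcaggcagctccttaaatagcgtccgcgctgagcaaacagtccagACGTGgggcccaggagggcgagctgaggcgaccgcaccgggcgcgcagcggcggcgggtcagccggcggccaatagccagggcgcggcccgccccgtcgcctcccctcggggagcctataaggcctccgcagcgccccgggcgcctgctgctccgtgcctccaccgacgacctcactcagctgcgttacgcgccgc
At least 1 such core was found in an entry of 6 of the 8 members searched. Among them were PCOLCE with its lower level and PLOD2 with its higher level. The share over all promoters, 48.4%, counts single entries, whereas LOX had 3 entries and SERPINH1 had 2, so the 2 figures are not alike.

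PLOD1 (ENSG00000083444, plus strand, chr1:11994262-12035599, hg19) stood at 87.0 and 119 FPKM, a log2 ratio of 0.44. None of its 7 measured isoforms passed 2-fold, and none is called in the authors' deposited table. PLOD1-008 has the status LOWDATA there rather than OK, so it was not tested. The main coding transcript of the gene, PLOD1-001, stood at 47.7 and 62.0 FPKM. The short processed transcript PLOD1-008 stood at 10.9 and 19.3 FPKM, and PLOD1-007 at 6.59 and 11.9 FPKM. The coding PLOD1-003 (8.97 and 8.10 FPKM) and PLOD1-202 (4.70 and 7.77 FPKM) were small beside PLOD1-001. PLOD2 over PLOD1 was 0.322 in young and 1.23 in senescent cells, and 0.273 and 0.957 on coding transcripts alone, so PLOD2 exceeded PLOD1 in senescent cells on the sums only. Of the summed lysyl hydroxylase genes, 247 and 457 FPKM with PLOD3 included, PLOD2 made up 11.4% and 31.8%.

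**Figure D2:**
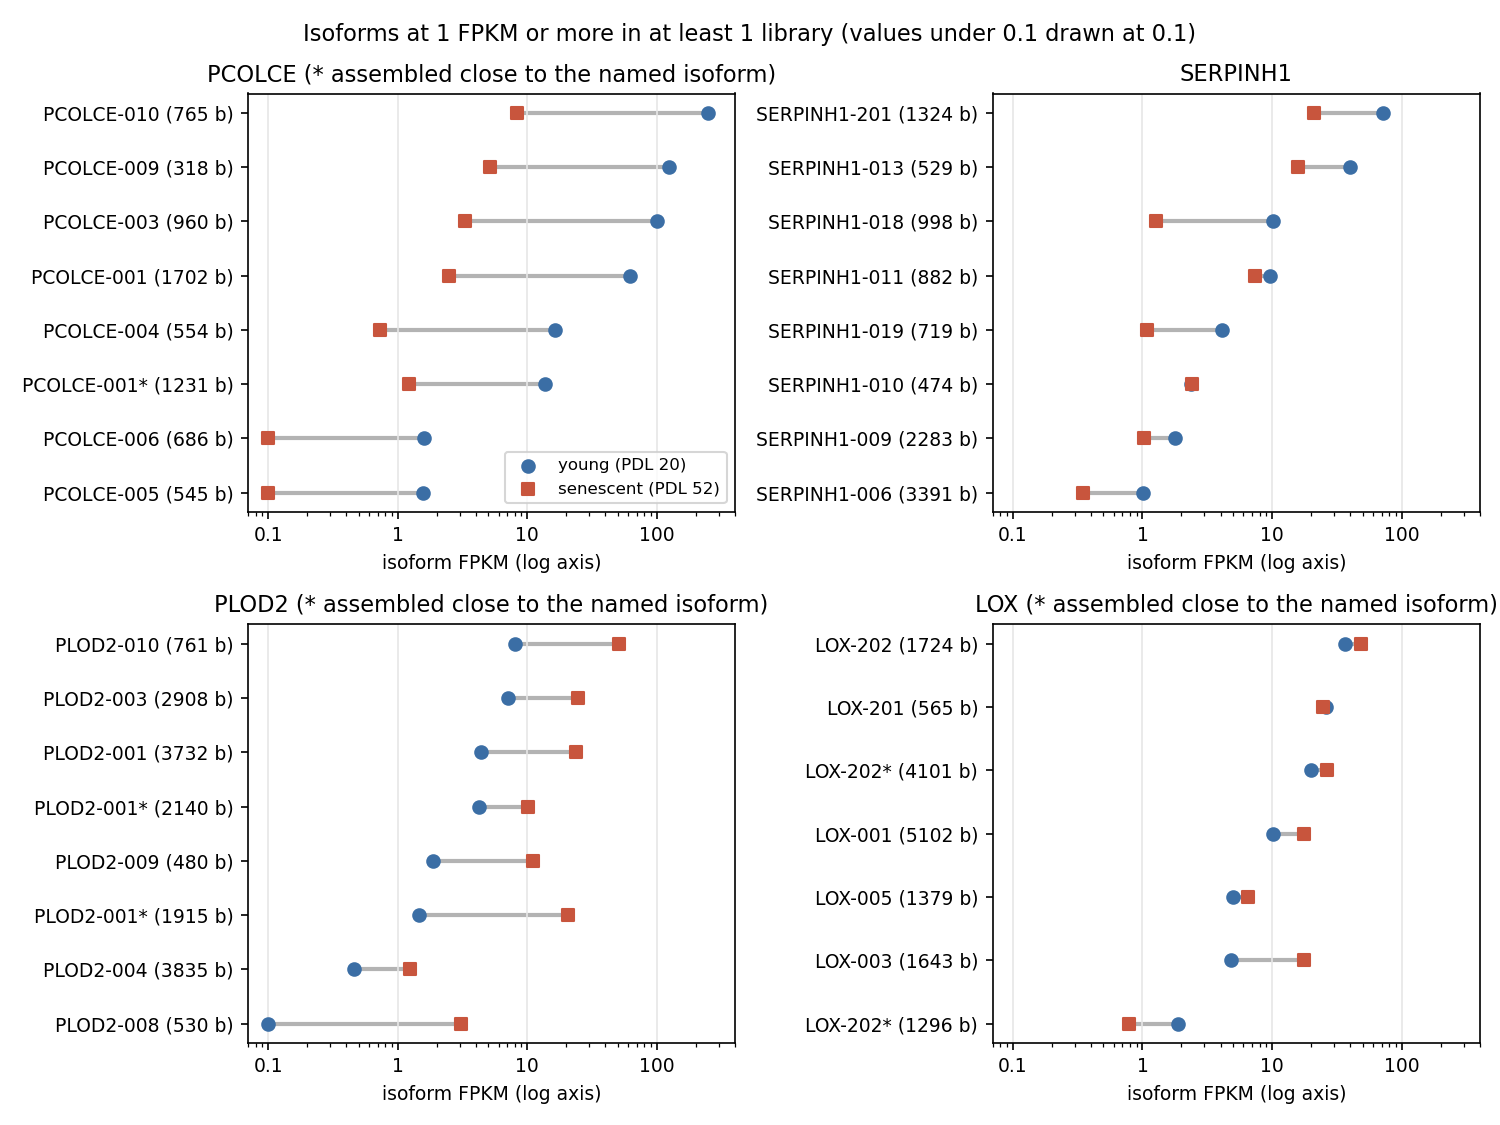
Isoform FPKM (log axis) in the young library (circles) and the senescent library (squares) for PCOLCE, SERPINH1, PLOD2 and LOX, for isoforms that reached 1 FPKM in either library, with transcript length in bases (b). All 8 PCOLCE isoforms lie lower and all 8 PLOD2 isoforms higher in the senescent library, whereas those of LOX stay within 2-fold after adding 1 FPKM except for LOX-003, at 4.78 and 17.7 FPKM.

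LOX, LOXL1 and LOXL2 encode secreted copper-dependent amine oxidases that turn lysines into reactive aldehydes. LOX, the founding member, acts on fibrillar collagen and elastin. The gene (ENSG00000113083) lies on the minus strand at chr5:121398890-121414206 (hg19) and stood at 105 and 142 FPKM, a log2 ratio of 0.43. Of 7 measured isoforms only LOX-003, a retained-intron transcript, passed 2-fold, and none is called in the authors' deposited table. The largest, LOX-202, has the status LOWDATA there rather than OK, so it was not tested.

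The coding isoforms of LOX differed less. LOX-202 stood at 36.3 and 48.1 FPKM, LOX-201 at 26.0 and 24.9 FPKM, and LOX-001 at 10.2 and 17.6 FPKM. A coding transcript of 4101 bases assembled close to LOX-202 stood at 19.9 and 26.4 FPKM, and the processed transcript LOX-005 at 4.96 and 6.48 FPKM. SRFBP1, a gene on the opposite strand that overlaps the LOX locus, stood at 9.35 and 6.07 FPKM.

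LOXL1, which is needed for the renewal of elastic fibres, lies on the plus strand at chr15:74218330-74244478 (hg19, ENSG00000129038). It stood at 74.2 and 28.6 FPKM, 2.60-fold lower, with a log2 ratio of -1.35. Nearly all of this was the coding transcript LOXL1-201, at 73.5 and 28.0 FPKM, about 2051 and 726 fragments. The authors' deposited table gives it q = 0.145, so it is not called. Transcripts outside the sum ran the same way: one within a LOXL1 intron stood at 25.8 and 9.89 FPKM, and one placed on the opposite strand of its exons at 15.6 and 5.24 FPKM.

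The LOXL1 promoter (RefSeq, GRCh38.p14, chr15:73926212-73926511, plus strand) is shown beside those of PCOLCE and SERPINH1, the other members that were lower. It holds none of the 4 motifs searched in this window, so no letter is in capitals.
LOXL1: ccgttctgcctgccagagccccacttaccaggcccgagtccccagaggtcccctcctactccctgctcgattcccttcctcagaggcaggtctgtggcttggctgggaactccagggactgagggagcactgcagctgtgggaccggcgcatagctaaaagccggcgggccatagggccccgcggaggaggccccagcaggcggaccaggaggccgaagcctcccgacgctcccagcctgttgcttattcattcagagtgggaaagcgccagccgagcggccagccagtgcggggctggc

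LOXL2, which crosslinks collagen IV of basement membranes, lies on the minus strand at chr8:23154702-23282841 (hg19, ENSG00000134013). It stood at 135 and 217 FPKM, a log2 ratio of 0.68. On these sums it was the highest of the 3 lysyl oxidase members in both libraries, but on coding transcripts LOX was higher in young cells (94.6 against 84.5 FPKM). Of 12 measured isoforms 3 were at least 2-fold higher and none was lower. The largest, a coding transcript of 2719 bases assembled close to LOXL2-001, differed little, at 62.7 and 75.5 FPKM. ENST00000404624, a transcript of 1431 bases with no biotype in the file, stood at 34.4 and 63.2 FPKM, and LOXL2-001 at 12.2 and 21.6 FPKM. ENTPD4, a gene on the same strand, overlaps 39546 bases of the LOXL2 locus and stood at 23.1 and 25.1 FPKM. On the opposite strand RP11-177H13.2 stood at 2.46 and 4.64 FPKM.

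Among the smaller LOXL2 isoforms, LOXL2-013 stood at 5.18 and 16.9 FPKM and LOXL2-004 at 8.55 and 11.4 FPKM. The authors' deposited table calls 2 assembled transcripts close to LOXL2-001 higher. One of 2746 bases stood at 2.41 and 10.4 FPKM (q = 0.0725 in the authors' deposited table). The other, of 3848 bases, was listed at 0 and stood at 3.80 FPKM in the senescent library (q = 0.0553 in the authors' deposited table).

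The lysyl oxidase family as a whole summed to 341 FPKM in young and 398 FPKM in senescent cells, but its make-up differed. LOXL1 made up 21.8% and 7.19% of this sum, LOX 30.7% and 35.7%, and LOXL2 39.6% and 54.6%. LOX over LOXL1 was 1.41 in young and 4.97 in senescent cells.

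Over the 10 members, 73 isoforms reached 1 FPKM. Of these 16 were at least 2-fold lower, where 13.1% of the 48676 measured isoforms of named genes were, and 12 were higher, where 11.6% were. The other 45 stayed within 2-fold. PCOLCE and SERPINH1 account for 12 of the 16 lower isoforms and PLOD2 for 7 of the 12 higher ones. In the authors' deposited table, 8 of 83 tested member isoforms are called lower and 5 higher, where 1.84% and 1.32% of all 107936 tested transcripts are. All 8 lower calls of the authors' deposited table are of PCOLCE or SERPINH1, and the 5 higher calls are of PLOD2 or LOXL2.

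**Figure D3:**
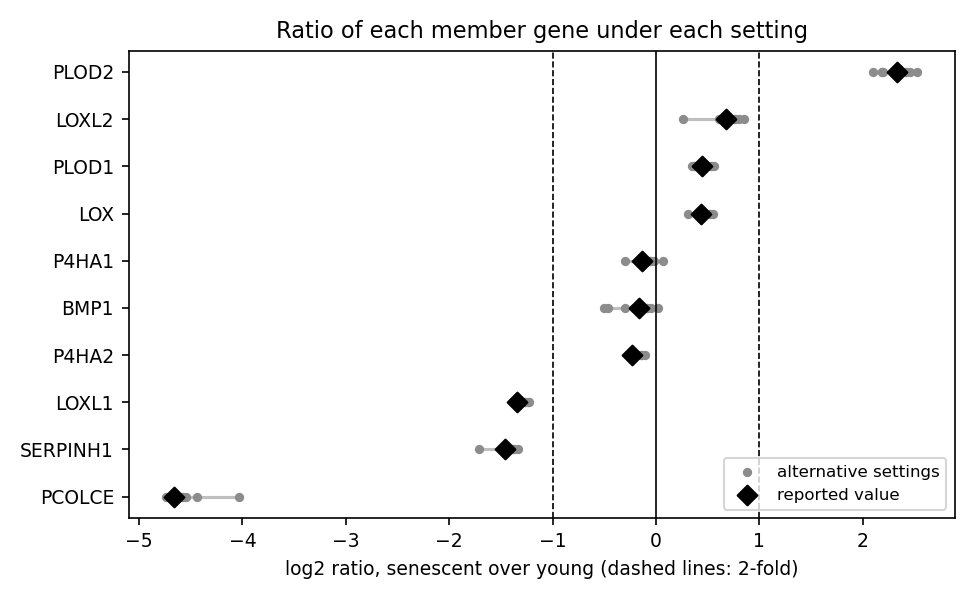
Log2 ratio of senescent over young for each member gene as reported (diamonds) and under each alternative way of computing it (grey points), with dashed lines at 2-fold. PCOLCE, SERPINH1 and LOXL1 lie below the lower line and PLOD2 above the upper line under all 11 alternatives, while P4HA1 and BMP1 straddle 0.

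The main fibrillar collagen chains, substrates of these enzymes, were lower in the senescent library, though not every chain was. The 11 fibril-forming collagen genes on the list summed to 6259 and 2268 FPKM, 2.76-fold lower, with COL1A1 at 3994 and 1242 FPKM. Of 8 that were measured, COL1A1, COL1A2, COL3A1 and COL5A1 were at least 2-fold lower, where 8.58% of all measured genes were, and COL11A1 was higher, at 14.5 and 37.7 FPKM. COL1A2 stood at 1739.6 and 848 FPKM, COL3A1 at 397 and 57.4 FPKM, and COL5A1 at 34.0 and 13.0 FPKM. COL5A2 (60.5 and 51.3 FPKM), COL24A1 (5.79 and 4.56 FPKM) and COL27A1 (13.1 and 13.2 FPKM) stayed within 2-fold. Set against this sum, SERPINH1 and LOXL1 kept pace with the chains. SERPINH1 came to 22.7 and 22.6 FPKM per 1000 FPKM of collagen chains, and LOXL1 to 11.9 and 12.6.

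PCOLCE was lower than its substrate transcripts, at 90.7 and 9.45 FPKM per 1000 FPKM of collagen chains. The other 7 members were higher relative to the chains. PLOD2 came to 4.48 and 64.2, 14.3-fold more, LOXL2 to 21.6 and 95.7, LOX to 16.7 and 62.6, and PLOD1 to 13.9 and 52.4. P4HA2 came to 12.1 and 28.5, P4HA1 to 5.07 and 12.7, and BMP1 to 2.22 and 5.43. COL1A1 and COL1A2 supply most of the denominator, so these ratios largely follow those 2 genes. On coding transcripts alone the levels differ, with PLOD2 at 10.2 and 124 and PCOLCE at 44.1 and 5.86, but each of the 10 genes kept its direction.

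**Figure D4:**
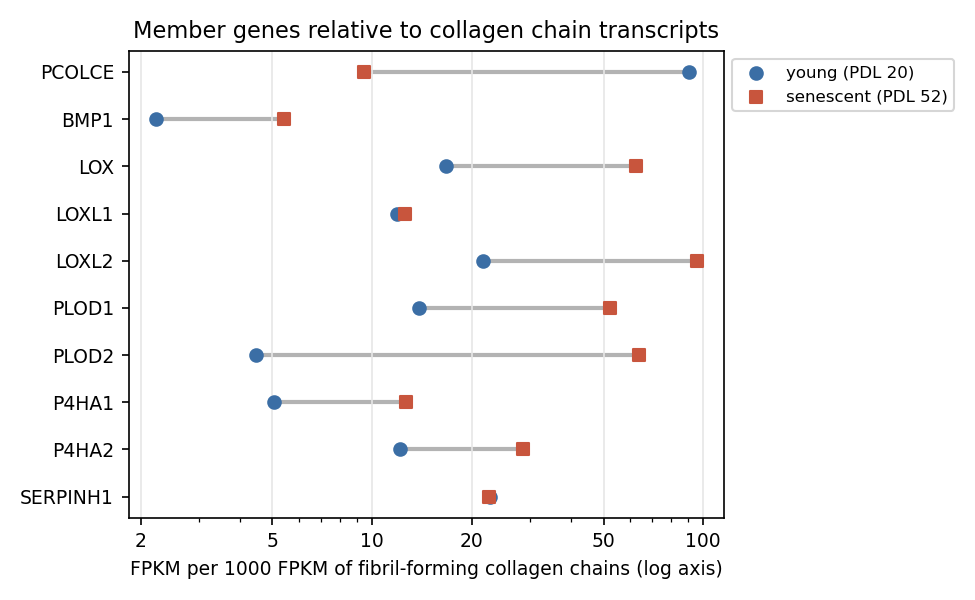
Each member gene's FPKM per 1000 FPKM of summed fibril-forming collagen chains (log axis) in the young library (circles) and the senescent library (squares). SERPINH1 and LOXL1 overlap between the libraries, PCOLCE lies lower and the other 7 genes lie higher in the senescent library.

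Other genes of the pathway showed no common direction. Over 6 lists of proteinases, lysyl oxidases, hydroxylase partners, chaperones, export and copper genes, 33 of 39 genes were measured. Of these 4 were lower, 3 were higher and 26 stayed within 2-fold, with a median log2 ratio of -0.01. Over all 17965 measured genes 8.58% were lower and 6.65% higher, so these counts are close to the background. Of 8 other proteinases and enhancers 3 were measured, and 2 passed 2-fold. PCOLCE2, the other enhancer, stood at 3.83 and 0.821 FPKM and the N-proteinase ADAMTS2 at 60.1 and 24.6 FPKM, both lower. ADAMTS3, a related N-proteinase, stood at 1.24 and 0.170 FPKM. In the oxidase family LOXL3 was lower, at 17.3 and 4.31 FPKM, and LOXL4 stood at 9.69 and 5.76 FPKM.

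Among the 9 hydroxylase partners only LEPREL1 passed 2-fold. It encodes prolyl 3-hydroxylase 2 (newer symbol P3H2) and stood at 30.9 and 206 FPKM, a log2 ratio of 2.70, above that of PLOD2. The lysyl hydroxylase PLOD3 stood at 132 and 193 FPKM and the prolyl isomerase PPIB at 519 and 399 FPKM.

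Of 8 chaperones and glycosyltransferases, the prolyl isomerase FKBP7 was lower, at 12.3 and 5.48 FPKM, and the reticulum channel gene TMEM38B was higher, at 3.28 and 14.5 FPKM. FKBP10, an isomerase that works with HSP47 on procollagen, stood at 109.7 and 65.4 FPKM. FKBP9 stood at 208 and 172 FPKM, and the zinc transporter gene SLC39A13 at 25.2 and 30.5 FPKM.

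None of 8 measured export genes passed 2-fold: SEC31A stood at 524 and 523 FPKM, SEC24D at 153 and 119 FPKM, and TFG at 102 and 144 FPKM. Of the genes that bring copper to lysyl oxidases, the importer SLC31A1 was higher, at 55.0 and 130.4 FPKM. The copper chaperone ATOX1 stood at 49.5 and 73.8 FPKM and the copper pump ATP7A at 17.7 and 19.2 FPKM.

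Among the partners of the finished fibril, the proteoglycans DCN (517 and 135 FPKM) and BGN (312 and 49.2 FPKM) were lower, 2 of 6 measured on their list. LUM (63.4 and 35.8 FPKM), FMOD (6.22 and 4.11 FPKM) and ASPN (1.07 and 0.633 FPKM) stayed within 2-fold. Of 5 genes of elastic fibres, which LOX and LOXL1 act on, FBN2 alone passed 2-fold, at 52.8 and 9.09 FPKM, while elastin itself, ELN, stood at 1.58 and 1.36 FPKM. The microfibril gene FBN1 stood at 177 and 99.8 FPKM, and the elastic fibre assembly genes EFEMP2 and FBLN5 at 127 and 186 FPKM and at 91.2 and 92.0 FPKM. Of 3 genes of collagen uptake and breakdown, CTSK, a collagen-degrading lysosomal protease, was higher, at 48.3 and 114 FPKM. MRC2, an uptake receptor for collagen, stood at 20.5 and 12.8 FPKM and the membrane collagenase MMP14 at 45.2 and 40.4 FPKM.

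**Figure D5:**
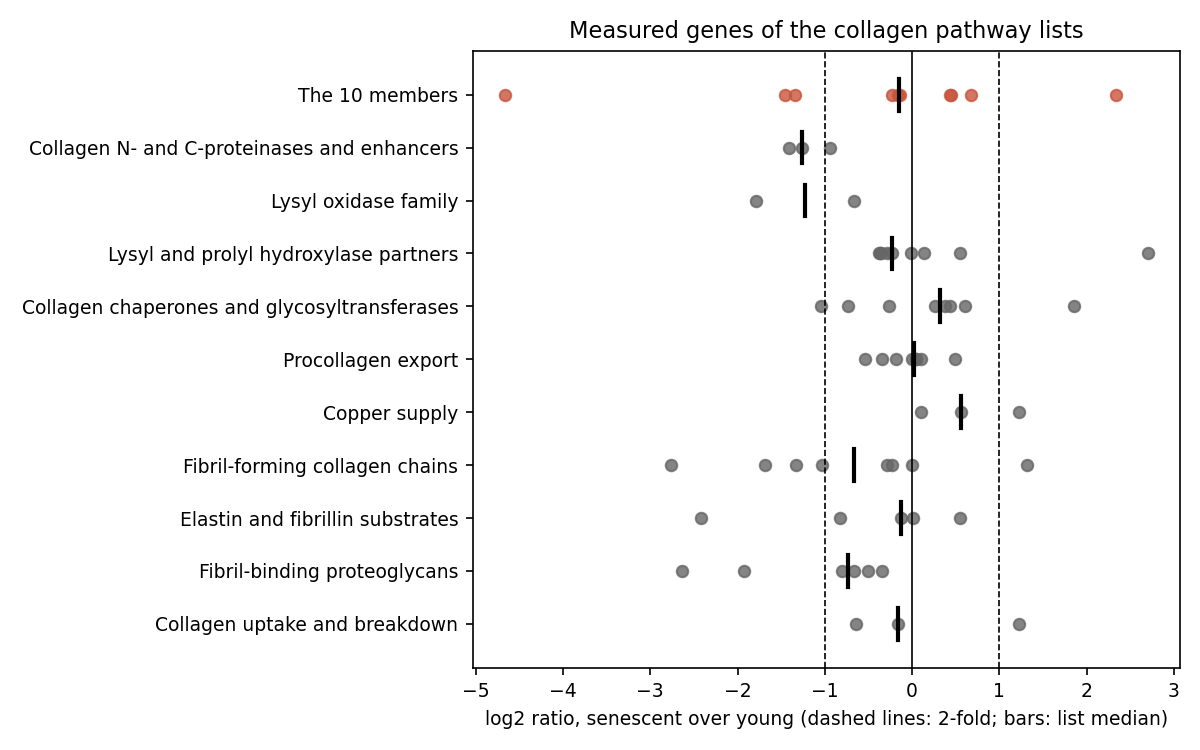
Log2 ratio of senescent over young for the 10 members and for the measured genes of each pathway list, with list medians as bars and dashed lines at 2-fold. The member genes span -4.66 to 2.34 with a median of -0.15, and the export genes all lie within 2-fold.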

How the data were processed

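Total RNA of 1 young and 1 senescent WI-38 culture was sequenced after amplification with NuGEN Ovation kits, per the labels' protocols. The submitters' processing notes list the tools Cuffdiff, Cufflinks 2.0.2 and TopHat2 2.0.6 and the build hg19. Settings, annotation version and strand are not given in the sources used here. The authors deposited 1 transcript table with an FPKM per library, a p-value and a q-value per transcript, and a status (OK where tested), per the file headers. The column headed Old was taken as the senescent library.

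FPKM were summed per gene name, and the log2 ratio was taken after adding 1 FPKM. A gene or isoform counted as measured at 1 FPKM in at least 1 library and as lower or higher at 2-fold. A plain fold is a ratio of FPKM. The deposited q-value was called at under 0.1, with the sign of the ratio. No test was made, because each group holds 1 library. The computation recovered the changes put into simulated data without noise, which checks the arithmetic only and not the spread of real libraries.

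Depth was estimated as the number of fragments, over a length shortened by 200 bases, at which low FPKM values of unannotated single transcripts become whole numbers. Within 0.05 of a whole number lay 87.7% of 1369 values (young) and 90.0% of 1958 values (senescent). Chance gives 10% at a depth fixed beforehand, whereas these depths were picked to make the share largest. Fragments were not recovered for annotated genes, so fragment numbers given for isoforms are approximate, and no interval was computed.

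The members, pathway lists and markers were chosen with earlier results of these data known. Named were the 10 members, their isoforms at 5 FPKM or more or with q under 0.1, and each list's genes past 2-fold. At most 3 more were named per list, those with the highest mean FPKM. The BMP1 isoforms, P4HA1-202, P4HA1-203, PLOD2-002 and ELN were named beside these after their values were seen. Promoters of 300 bases came from RefSeq (GRCh38.p14) and exons from GENCODE v29, matched by symbol and transcript ID, and no coordinate was converted. Python 3.11.15, pandas 2.3.3, numpy 2.4.6 and matplotlib 3.10.9 were used. The alternatives tried were pseudocounts, scalings, filters, fold rules and choices of transcripts.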

Additional observations from a re-analysis of the deposited data

Results flagged for a closer look

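Some rows that carry a member's name are classed as lying in its introns, on the opposite strand or beyond its end, or as another kind of overlap, and were left out of the gene sums. Of 15 such rows, 10 were above 1 FPKM in the senescent library, 5 of them above and 5 below the young level. The 5 above it are given here. In LOXL2 introns, a transcript of 1180 bases stood at 10.9 FPKM in the senescent and 6.12 FPKM in the young library, and another of 297 bases at 2.63 and 1.35 FPKM. In a PLOD2 intron, a transcript of 693 bases stood at 4.65 and 3.20 FPKM, and opposite the PLOD2 exons one of 411 bases stood at 2.84 and 1.33 FPKM. In a BMP1 intron, one of 686 bases stood at 1.40 and 1.04 FPKM. None is called in the authors' deposited table.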

How the results depend on the processing

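PCOLCE, SERPINH1 and LOXL1 stayed at least 2-fold lower and PLOD2 at least 2-fold higher under the 11 alternatives for single genes. One, chosen after seeing the data, kept only rows with an Ensembl gene ID, assembled ones included, and changed LOXL2 alone, to 0.61. P4HA1 and BMP1, within 2-fold throughout, changed sign under 1 alternative each: 0.07 on coding transcripts for P4HA1 and 0.02 on annotated transcripts for BMP1. No paired analysis was possible because each group holds 1 library. With 1 library there was also none to leave out.

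Under a 4-fold rule 1 member was lower, and under a 1.5-fold rule 2 were higher. The members' median was -0.29 with the highest isoform as the gene value, -0.047 on annotated transcripts and -0.035 with upper-quartile scaling. That scaling moved the median of all measured genes from -0.10 to 0.0054. Of the other collagen-processing genes, 2 were lower with a pseudocount of 5 FPKM, 2 lower and 5 higher with the highest isoform, 1 lower on coding transcripts, 7 lower at 1.5-fold, and 0 lower and 1 higher at 4-fold. Of all 17965 measured genes, 3653 were lower and 2611 higher at 1.5-fold, and 299 lower and 174 higher at 4-fold. With a pseudocount of 5 FPKM, 499 of them were lower. Of member isoforms, 10 were lower with a pseudocount of 5 FPKM, 22 higher at 1.5-fold, and 7 lower and 7 higher at 4-fold. The cause of these shifts was not tested, beyond the rule or set of transcripts itself. Differences near 1 fragment, as in PLOD2-002, were not detectable at this depth.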
